A study of Mus musculus with 4 samples.

Results

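The 8 genes described here are Zfhx3, Zfhx4, Bnc2, Bcl11a, Bcl11b, Ebf1, Ebf2 and Ebf3, transcription factors that act while young neurons mature, out of 32285 genes in the deposited matrices. They were picked by name, and they were chosen by measured values: several of them had already been seen to be lower in En1/2 CKO cells in these same libraries. Their differences between control and CKO are therefore given as a description, and the tests beside them are those of the fit over all genes.

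The study sequenced single cells from mouse cerebellum at E14.5 and asked what the Engrailed genes do in excitatory neurons of the cerebellar nuclei. All animals carried Atoh1-Cre/+ and the R26LSL-tdT/+ reporter, so Cre acts, and the red tdT protein marks cells, in the Atoh1 lineage that leaves the rhombic lip. Controls had no other allele listed, and the conditional knockouts, En1/2 CKO, carried En1lox/lox and En2lox/lox as well. There were 2 libraries in each group, each from pooled animals whose tdT+ cells had been sorted, and whether the libraries come from separate litters is not given, so every p-value measures only the spread between these libraries.

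Zfhx3 and Zfhx4 are very large proteins with both zinc fingers and homeodomains, and Zfhx3 is known for stopping division and promoting differentiation in neurons. Bnc2 (basonuclin 2) is a zinc finger protein. Bcl11a and Bcl11b (Ctip1 and Ctip2) are zinc finger proteins that join BAF and NuRD chromatin complexes and direct the identity of projection neurons. Ebf1, Ebf2 and Ebf3 are early B-cell factors, helix-loop-helix proteins that act in the migration and differentiation of neurons, and Ebf2 is known for its role in Purkinje cell subtypes of the cerebellum.

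The results below turn on Zfhx3, Bnc2 and Ebf1, which were lower in both CKO libraries, and on the contrast with Ebf3. Their promoters are therefore shown, from 250 bases before to 50 bases after a RefSeq start (GRCm38.p6), written along the gene's own strand. Capitals mark matches to TAATTA, the core that Engrailed and other homeodomain proteins bind, to CCCNNGGG, the core of the EBF site, or to TGACAG, the core of the Meis site, on either strand. The table holds 7 windows for 6 of the 8 genes, with none for Ebf2 and Zfhx4.
Zfhx3 (chr8:108714394-108714693, plus strand): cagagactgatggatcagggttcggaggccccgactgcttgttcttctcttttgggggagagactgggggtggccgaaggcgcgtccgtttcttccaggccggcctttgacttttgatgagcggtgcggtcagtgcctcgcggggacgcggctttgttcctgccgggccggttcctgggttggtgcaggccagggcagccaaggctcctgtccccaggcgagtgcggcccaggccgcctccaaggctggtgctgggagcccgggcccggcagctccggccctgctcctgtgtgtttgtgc
Bnc2 (chr4:84610148-84610447, minus strand): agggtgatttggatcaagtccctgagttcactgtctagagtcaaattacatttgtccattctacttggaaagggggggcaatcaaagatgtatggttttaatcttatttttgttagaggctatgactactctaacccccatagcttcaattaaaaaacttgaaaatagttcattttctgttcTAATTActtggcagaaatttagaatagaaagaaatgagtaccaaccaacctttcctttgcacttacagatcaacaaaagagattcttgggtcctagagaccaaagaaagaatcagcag
Ebf1, first start (chr11:44617850-44618149, plus strand): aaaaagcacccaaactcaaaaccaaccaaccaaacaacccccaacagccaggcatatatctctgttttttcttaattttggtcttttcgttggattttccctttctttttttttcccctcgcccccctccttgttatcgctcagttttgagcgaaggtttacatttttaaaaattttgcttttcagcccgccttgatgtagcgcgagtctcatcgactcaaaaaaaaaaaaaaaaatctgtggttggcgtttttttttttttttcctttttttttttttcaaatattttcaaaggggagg
Ebf1, second start (chr11:44619978-44620277, plus strand): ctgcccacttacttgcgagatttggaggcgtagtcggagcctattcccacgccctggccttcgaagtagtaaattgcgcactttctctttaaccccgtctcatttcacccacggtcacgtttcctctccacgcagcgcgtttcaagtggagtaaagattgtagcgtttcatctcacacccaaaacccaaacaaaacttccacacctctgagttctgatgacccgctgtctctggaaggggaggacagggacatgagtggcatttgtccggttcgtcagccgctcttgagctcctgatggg
Ebf3 (chr7:137314396-137314695, minus strand): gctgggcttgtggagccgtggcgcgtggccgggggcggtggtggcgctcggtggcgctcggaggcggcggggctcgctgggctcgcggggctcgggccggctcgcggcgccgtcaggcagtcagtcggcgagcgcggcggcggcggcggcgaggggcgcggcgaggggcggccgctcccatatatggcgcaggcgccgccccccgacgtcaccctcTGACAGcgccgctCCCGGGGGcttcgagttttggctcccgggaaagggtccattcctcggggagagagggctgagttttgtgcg

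In the Bnc2 window TAATTA began 68 bases before the start, and 5.29% of all 32851 promoter windows hold that sequence. The Ebf3 window held CCCNNGGG 21 bases and TGACAG 34 bases before the start. CCCNNGGG occurs in 13.7% of all windows and TGACAG in 19.2%. The Bcl11b window, not shown, also held CCCNNGGG, 204 bases before the start. The letters of the 3 cores were not in the Zfhx3, Ebf1 and Bcl11a windows. A match is a description of the sequence and not evidence of binding.

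In the GENCODE M21 annotation (GRCm38) all 8 are protein-coding genes, and Zfhx3 spans chr8:107942644-108961630, Bnc2 chr4:84275095-84675275 and Ebf1 chr11:44617317-45008091. All printed Zfhx3, Bnc2 and Ebf1 windows lie inside those spans. Antisense or other genes overlap all of them except Bcl11b, among them 5 for Ebf2 and 6 for Zfhx3, and the strand setting of the counting is not given in the sources used here.

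A cell was used if it had 500 or more genes and 1000 or more UMIs (unique molecular identifiers, counts of single RNA molecules), of which mitochondrial ones made up no more than 10%. This left 2911 and 3931 control cells and 2007 and 3697 CKO cells, with median depths of 2734, 2122, 5352 and 5544 UMIs per cell. Pairs of libraries shared 7 to 17 barcodes, and 1 to 6 of the kept ones. En2 was far lower in the CKO libraries in all 4 cell groups below, at 257 and 188 CPM (UMIs scaled to a common total of 1000000 per cell group) in control Meis2 over Pax6 cells against 46.8 and 43.8 (log2 fold change -2.24 ± 0.23 SE, edgeR adjusted p = 0.0177). En1 did not separate the genotypes there, with 562 and 462 against 347 and 743, and whether its 3′ tag lies outside the deleted part was not tested. Control 2 stood apart: haemoglobin and other erythroid genes summed to 3689 CPM in its Meis2 over Pax6 cells, against 4.50 to 63.1 in the other libraries. In Pax6 over Meis2 cells they summed to 1412 in control 2 and 993 in CKO 1, against 30.6 in control 1 and 2.84 in CKO 2.

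Cells were sorted into groups by single genes. Cells with more Meis2 than Pax6 UMIs numbered 603 and 2322 in the controls, against 573 and 372 in the CKO libraries. Cells with more Pax6 than Meis2 numbered 1801, 961, 1208 and 2978 in the same order. Markers of excitatory cerebellar nuclei neurons summed to 2880 to 3713 CPM in the Meis2 over Pax6 cells and to 636 to 1198 in the Pax6 over Meis2 cells. That list holds the gate gene Meis2, which alone gave 1279 to 1861 CPM in the first group and 38.2 to 191 in the second. Part of the gap was therefore set by the gate itself. Meis1 alone of that list was lower in the first group in both controls, at 443 and 559 CPM against 511 and 661. In the CKO libraries Meis1 was higher in the first group, at 531 and 653.5 against 488.5 and 514. Granule lineage markers, among them the gate gene Pax6, summed to 2048 to 3347 and to 3443 to 3953, so the first group still held RNA of these markers. Cntn2 alone of that list was higher in the first group, at 633 to 1255 CPM against 216 to 415. The rest of the list was higher in the second group in every library. Olig2 cells (112, 366, 138 and 143) and Tbr1 or Lmx1a cells (144, 511, 264 and 148) have at least 1 UMI of the gene. These gates drew on both sides: 25.9%, 72.7%, 47.1% and 17.5% of the Olig2 cells also had more Meis2 than Pax6.

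**Figure D1:**
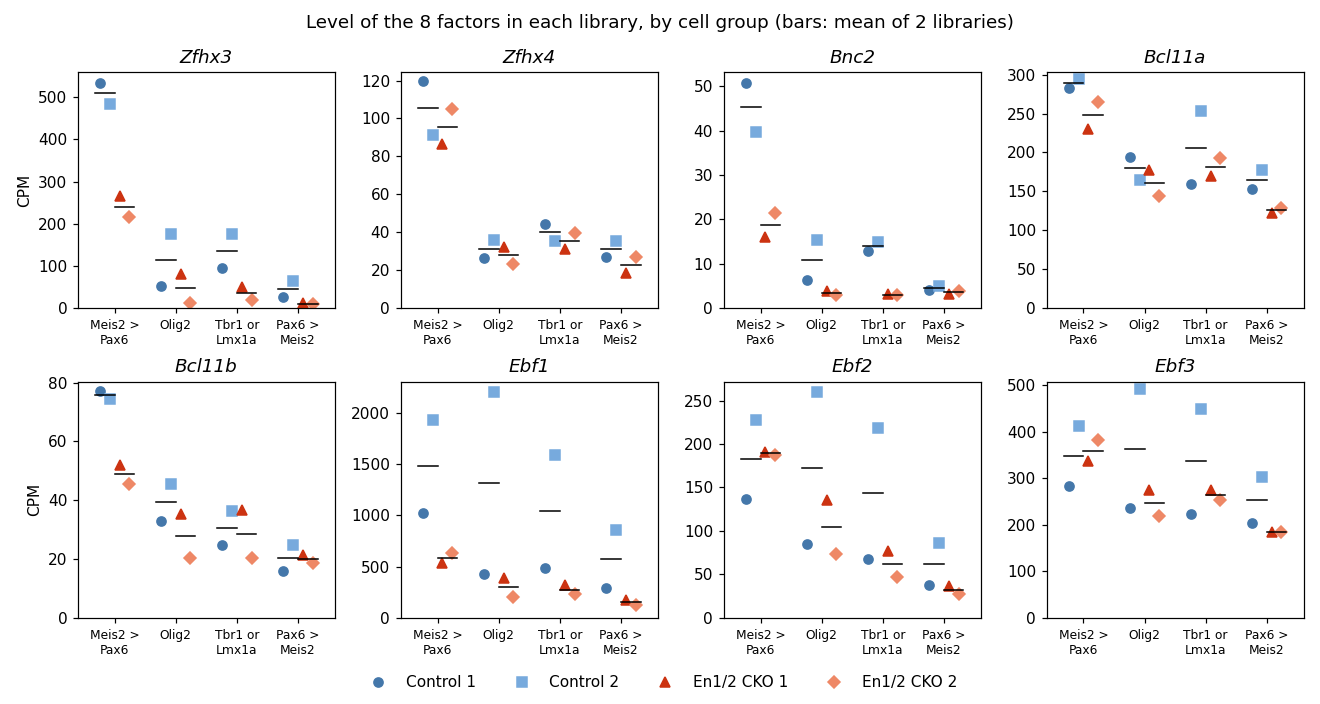
CPM (y axis, starting at 0) of each factor in 4 cell groups (x axis), 1 point per library and a bar at the mean of each pair of libraries. Zfhx3, Zfhx4, Bnc2, Bcl11a and Bcl11b were highest in Meis2 over Pax6 cells, Zfhx3 and Bnc2 of both CKO libraries lay below both controls there, and control 2 lay above the other libraries for Ebf1, Ebf2 and Ebf3.

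Among controls the large homeodomain and zinc finger factors belonged to the Meis2 side. Zfhx3 was at 509 ± 34.6 CPM (SD, n = 2) in Meis2 over Pax6 cells, at 135 ± 57.6 in Tbr1 or Lmx1a cells, at 114 ± 86.0 in Olig2 cells and at 45.0 ± 27.3 in Pax6 over Meis2 cells. The neighbouring levels of the last 3 groups overlapped between libraries. Bnc2 followed the same order, from 45.3 ± 7.89 to 13.9 ± 1.36, 10.9 ± 6.39 and 4.58 ± 0.66. Zfhx4 stood at 105 ± 19.9 in Meis2 over Pax6 cells and between 31.2 and 40.0 on average elsewhere, where the libraries overlapped.

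Bcl11a and Bcl11b were also highest on the Meis2 side, and there the 3 Ebf genes had the wider relative spread between the controls. Bcl11a averaged 289 ± 8.87 in Meis2 over Pax6 cells and 165 ± 17.2 in Pax6 over Meis2 cells, and Bcl11b 75.8 ± 2.14 and 20.4 ± 6.35. Ebf3 had 348 ± 92.3 in Meis2 over Pax6 cells, 363 ± 182 in Olig2 cells, 336 ± 160 in Tbr1 or Lmx1a cells and 254 ± 69.6 in Pax6 over Meis2 cells, and these overlapped. Ebf1 was at 1480 ± 640 and 577 ± 401 in the Meis2 and Pax6 groups, and Ebf2 at 182 ± 64.5 and 62.0 ± 34.5. Control 2 was the higher of the pair for the 3 Ebf genes in every group.

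In Meis2 over Pax6 cells the CKO libraries held less Zfhx3, Bnc2 and Ebf1, with log2 fold changes between -1.33 and -1.03. Zfhx3 stood at 534 and 485 CPM in the controls, against 265 and 217 in the CKO libraries. Both CKO values lay below both controls, with a log2 fold change of -1.03 ± 0.22 (SE) and an edgeR adjusted p of 0.103. Bnc2 stood at 50.9 and 39.7 against 16.1 and 21.4 CPM, again without overlap, with a log2 fold change of -1.25 ± 0.25 and an edgeR adjusted p of 0.0861. Ebf1 stood at 1027 and 1932 against 532 and 634 (log2 fold change -1.33 ± 0.32, edgeR adjusted p = 0.133). Control 2 was far above control 1 for Ebf1, and without control 2 its log2 fold change was -0.72.

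Bcl11b and Bcl11a differed less. Bcl11b was at 77.3 and 74.3 CPM in the controls, against 52.1 and 45.5 in the CKO libraries (log2 fold change -0.59 ± 0.20, edgeR adjusted p = 0.232). Bcl11a was at 282 and 295 against 230.2 and 265, with a log2 fold change of -0.19 ± 0.21. Neither pair overlapped, but the gap of Bcl11a was smaller than the distance between its CKO libraries.

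Zfhx4, Ebf2 and Ebf3 did not separate the genotypes. Zfhx4, the close relative of Zfhx3, stood at 119.5 and 91.3 against 86.4 and 105 CPM (log2 fold change -0.10 ± 0.21). Ebf2 stood at 137 and 228 against 191 and 188 (0.07 ± 0.27). Ebf3 stood at 282 and 413 against 337 and 382 (0.07 ± 0.25). In all 3 the CKO and control values overlapped.

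None of the 8 factors passed the threshold of 0.05 in the Meis2 over Pax6 cells, where 25 of 11804 genes did, or 0.212%. At an unadjusted p under 0.05, 4 of the 8 were lower (Zfhx3, Bnc2, Bcl11b and Ebf1), beside 6.82% of all genes. DESeq2's Wald test called 3 of the 8 (Zfhx3, Bnc2 and Ebf1), beside 186 of 6271 genes to which it gave an adjusted p, or 2.97%. Both CKO libraries lay below both controls for 5 of the 8, beside 24.6% of all genes. Since the factors were chosen with this contrast known, nothing is read from these counts.

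**Figure D2:**
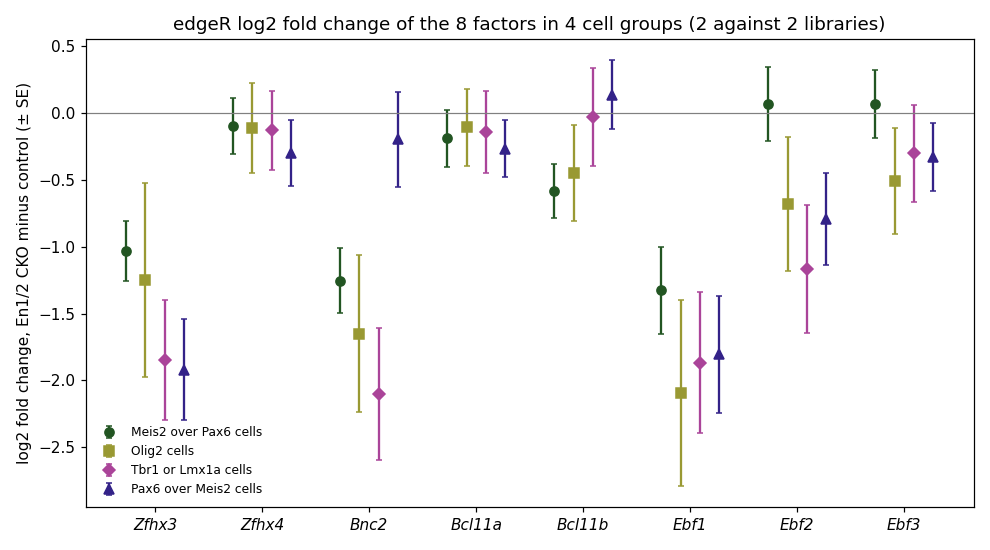
edgeR log2 fold change of En1/2 CKO minus control (y axis, bars ± SE, 2 against 2 libraries) for each factor (x axis) in 4 cell groups. Zfhx3, Bnc2 and Ebf1 lay at or below -1.03 in Meis2 over Pax6 cells, and Ebf2 and Ebf3 stood at 0.07 there and below 0 in the other groups.

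Other RNA moved with these differences. In Meis2 over Pax6 cells the granule lineage markers summed to 2244 and 2048 CPM in the controls, against 3014 and 3347 in the CKO libraries, and genes of dividing cells to 369 and 244 against 773 and 511. Of the granule list, Cntn2 was at 633 and 827 against 1101 and 1255. Neurod1 was lower in both CKO libraries, at 164 and 185 against 109 and 142. Tlx3 overlapped, and the rest of that list was higher in both CKO libraries. Markers of excitatory cerebellar nuclei neurons summed to 2880 and 3713 against 3197 and 3000, which overlapped. Of these, Slc17a6 was lower in both CKO libraries, at 343 and 339 against 235 and 225. Lhx2 was higher in both, at 215 and 188 against 358 and 261, and the other genes of the nuclei list overlapped. GABAergic markers, Purkinje cells included, summed to 159 and 125 against 60.9 and 124, with Ptf1a at 0 in every library. Markers of progenitors and glia summed to 246 and 74.3 against 177 and 301, and those of unipolar brush cells to 79.9 and 128 against 58.8 and 38.8. Meningeal and endothelial markers summed to at most 6.61, and microglial ones to at most 1.13 except in control 2, at 72.8. The part of these shifts in the result was not tested, and the marker sums were not taken in the narrower cell choices that follow. With a margin of 2 UMIs of Meis2 over Pax6 the fold change of Zfhx3 was -1.15 and that of Bnc2 -1.44 (edgeR adjusted p = 0.0492 and 0.0427). Without cells holding a GABAergic UMI they were -1.09 and -1.23, and neither gene passed the threshold. In intact cells, with 4000 or more UMIs of which up to 5% were mitochondrial, the fold changes were -0.78 and -0.89. Neither gene passed there either. Of the UMIs summed over all Meis2 over Pax6 cells, intact cells gave 500094 of 1965933 and 770052 of 6043824 in the controls. In the CKO libraries they gave 3145314 of 4418773 and 1172724 of 1779646. The median depth of the whole group was 2617 and 2171.5 against 3110 and 2248 UMIs. The part of these differences in the fold changes was not tested. In such sums, fewer cells that express a gene and less RNA per cell cannot be told apart.

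Counting cells at 1 fixed depth evens out the depth between libraries. It does not tell fewer expressing cells from less RNA per cell, since the latter also lowers the share with a UMI. Each cell with at least 2000 UMIs was thinned to 2000, which left 416 and 1232 control and 400 and 212 CKO cells with more Meis2 than Pax6. Zfhx3 had a UMI in 49.3% and 40.0% of control cells and in 35.0% and 26.9% of the CKO cells. Among cells with a UMI, the mean was 2.62 and 2.86 UMIs in the controls against 2.21 and 2.44. Both the share of cells and the UMIs per cell with the gene were thus lower in both CKO libraries, and the exact permutation p of the share was 0.333, the smallest that 2 against 2 allows. Without thinning, when the deeper CKO cells keep all their UMIs, the shares were 49.9% and 41.1% against 48.2% and 33.1% and overlapped.

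Bnc2 had a UMI in 9.38% and 6.66% of thinned control cells and in 5.75% and 3.30% of CKO cells. Ebf1 was found in 58.9% and 75.7% against 55.8% and 50.5%. Ebf3 was found in 36.8% and 46.6% against 43.8% and 46.2%, which overlapped. Over the 4 cell groups, the shares in both CKO libraries were below both controls in 18 of 32 combinations of factor and group and above them in 3. For Meis2 over Pax6 cells this was 5 of 8 factors beside 16% of all genes tested. It was 5 of 8 beside 27.2% in Pax6 over Meis2 cells, 3 of 8 beside 18.7% in Olig2 cells and 5 of 8 beside 16.3% in Tbr1 or Lmx1a cells. Some of these rest on very few cells. Zfhx3 was in 2 of 34 and 20 of 165 control Olig2 cells, against 2 of 42 and 0 of 35 CKO ones. Zfhx4 and Bcl11b, which lay above in Olig2 cells, were each in 1 of 34 cells of control 1. No share of all genes was taken for lying above.

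**Figure D3:**
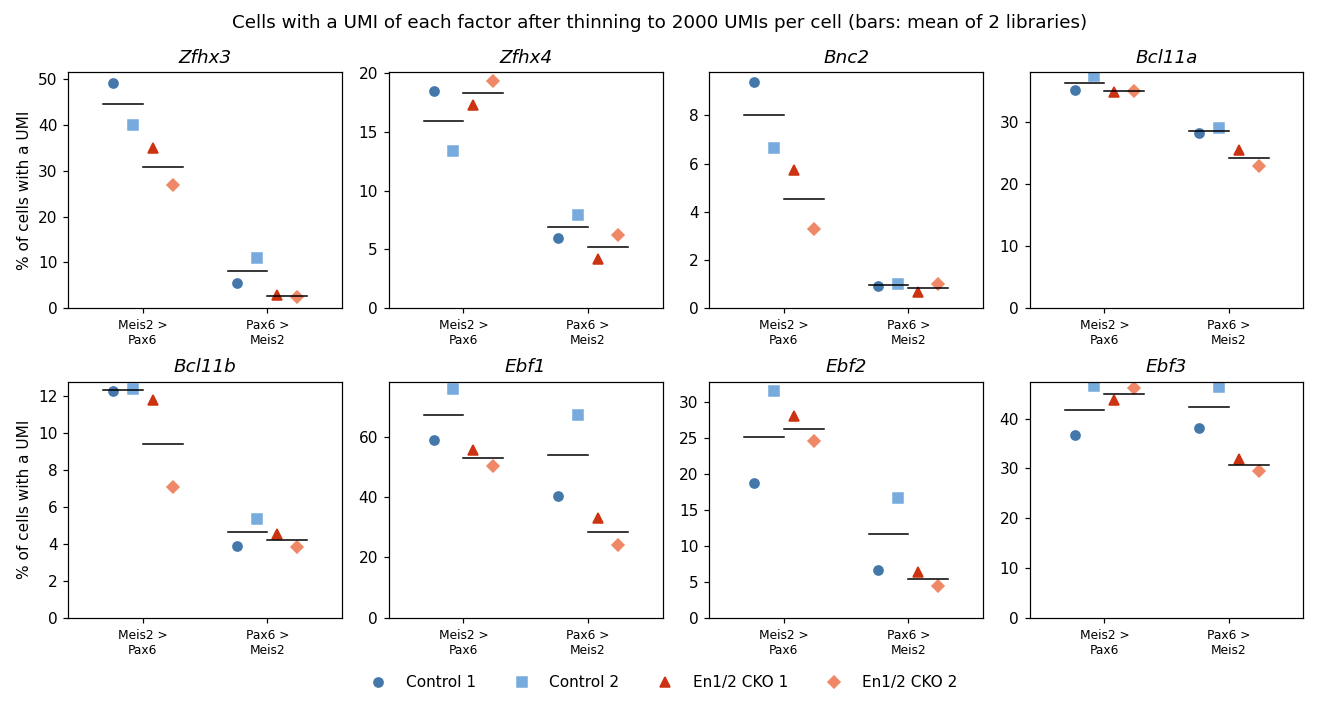
Percent of cells with at least 1 UMI (y axis, starting at 0) after thinning to 2000 UMIs per cell, for each factor in Meis2 over Pax6 and Pax6 over Meis2 cells, 1 point per library and a bar at the mean of each pair. Zfhx3 lay at 49.3% and 40.0% in control and at 35.0% and 26.9% in CKO Meis2 over Pax6 cells, where Zfhx4 and Ebf3 overlapped, and Ebf3 lay at 38.1% and 46.3% in control and at 31.9% and 29.5% in CKO Pax6 over Meis2 cells.

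Free RNA was read from the few kept barcodes with at least 10% haemoglobin UMIs, taken as red blood cells, which should hold none of these factors. Whether some of them also held a neuron was not tested, and they were not removed from the cell groups. In control 2 they gave 7 UMIs of Pax6, in 2 barcodes. In control 2 there were 12 such cells. Ebf1 gave 13 UMIs in 4 of them, or 675 CPM of their UMIs other than haemoglobin (exact Poisson 95% interval 359 to 1154, counting error only). Per cell this was 1.08 UMIs of Ebf1, beside 2.84 per Pax6 over Meis2 cell of control 2, of which 74.5% had a UMI without thinning (median depth 2339 UMIs, against a mean of 1606 other than haemoglobin in the haemoglobin barcodes). The part of free RNA in the Ebf1 level of that library was not tested. Zfhx3 gave 1 UMI in those 12 cells, Ebf2 and Ebf3 gave 2 each, and Zfhx4, Bnc2, Bcl11a and Bcl11b gave 0. The other libraries had 4, 3 and 0 such cells, too few for a level.

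Pax6 over Meis2 cells, the granule side, held little Zfhx3, at 25.7 and 64.3 CPM in the controls, against 11.9 and 9.26 in the CKO libraries. Both CKO values were lower (log2 fold change -1.92 ± 0.38, edgeR adjusted p = 0.145), and without control 2 the fold change was -1.15. Ebf1 stood at 294 and 861 against 172 and 130.0 (log2 fold change -1.81 ± 0.44, edgeR adjusted p = 0.233), and at -0.82 without control 2. Ebf2 stood at 37.7 and 86.4 against 36.8 and 27.5 (-0.79 ± 0.35), where control 1 and CKO 1 were nearly equal. Meis2 itself was at 54.0 and 191 against 76.2 and 38.2 in these cells, so control 2 held the most RNA of the other side. The median depth of these cells was 3238 and 2339 against 13722.5 and 9818.5 UMIs. Genes of dividing cells summed to 1877 and 1498 against 2218 and 1904 CPM. The part of either in these differences was not tested.

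The remaining factors differed less on the granule side. Ebf3 was at 204 and 303 CPM against 185 and 184, and Bcl11a at 153 and 177 against 122 and 129, both without overlap. Bcl11b was at 15.9 and 24.9 against 21.3 and 18.7, Zfhx4 at 27.2 and 35.6 against 18.8 and 27.2, and Bnc2 at 4.11 and 5.05 against 3.26 and 3.86. None of the 8 passed the threshold, beside 8 of 13931 genes (0.0574%). At an unadjusted p under 0.05, 3 were lower (Zfhx3, Ebf1 and Ebf2), beside 6.51% of all genes, and DESeq2 called 1 (Zfhx3), beside 0.613%. Both CKO libraries were below both controls for 6 of 8, beside 34.9% of all genes.

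The difference between the 2 sides was tested as an interaction with the library as a block, which called 15 of 13146 genes (0.114%) and none of the 8 factors. At an unadjusted p under 0.05 there were 5 of the 8, beside 5.64% of all genes, and DESeq2 called 0, beside 0.0991%. Ebf2 had the lowest p, with a CKO effect 0.86 ± 0.20 higher on the log2 scale in Meis2 over Pax6 cells than in Pax6 over Meis2 cells (edgeR adjusted p = 0.191). For Bnc2 and Bcl11b the same difference was -1.08 ± 0.33 and -0.74 ± 0.23 (edgeR adjusted p = 0.463 for each), lower on the Meis2 side. Zfhx3 differed by 0.76 ± 0.33 and Ebf1 by 0.39 ± 0.25. It is therefore not shown that any factor answered differently on the 2 sides.

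Olig2 and Tbr1 or Lmx1a cells were few. In Tbr1 or Lmx1a cells Zfhx3 was at 94.1 and 176 CPM in the controls, against 51.1 and 18.7 in the CKO libraries, and Bnc2 at 13.0 and 14.9 against 3.17 and 2.997. Bnc2 rested there on 12 and 23 UMIs against 10 and 4. Ebf1 was at 488 and 1592 against 317 and 235 and Ebf2 at 68.1 and 218 against 76.8 and 46.5, of which the second overlapped. The log2 fold changes were -1.85 ± 0.45 for Zfhx3, -2.10 ± 0.49 for Bnc2, -1.87 ± 0.53 for Ebf1 and -1.17 ± 0.48 for Ebf2.

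In Olig2 cells Ebf1 was at 429 and 2205 CPM against 391 and 208, so control 1 lay beside CKO 1 (log2 fold change -2.09 ± 0.70). Zfhx3 was at 53.2 and 175 against 80.4 and 13.4 and overlapped, and Bnc2 was at 6.42 and 15.5 against 3.79 and 2.93. Called genes numbered 2 of 10524 (0.019%) in Olig2 cells and 1 of 10196 (0.00981%) in Tbr1 or Lmx1a cells, none of them among the 8. At an unadjusted p under 0.05 and lower, there were 2 factors beside 4.84% of genes in the first and 4 beside 5.47% in the second. DESeq2 called 0 factors beside 0.194% of genes in the first and 1 (Ebf1) beside 0.319% in the second. Both CKO libraries were below both controls for 2 of 8 beside 23.3%, and for 3 of 8 beside 24.3%.

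Both gates mix the sides unevenly across libraries, and so the comparison was repeated in those of their cells that also had more Meis2 than Pax6, a choice made after seeing the data. In Olig2 cells of that kind (29 and 266 control and 65 and 25 CKO cells) Ebf1 was at 1032 and 2541 CPM against 591 and 466. Its log2 fold change was -1.78 ± 0.33 and it passed the threshold (edgeR adjusted p = 0.00147), as did 356 of 7815 genes, or 4.56%. Other values moved with it in these cells. Pax6 was at 67.3 and 76.6 against 192 and 263 CPM and Olig2 itself at 322 and 447 against 149 and 141 (edgeR adjusted p = 0.00282 and 0.00214), and the median depth was 3183 and 2650 against 9391 and 10512 UMIs per cell. Their part in the Ebf1 result was not tested. Zfhx3 in the same cells was at 187 and 221 against 179.9 and 70.7, and Ebf3 at 389 and 538 against 336 and 318, neither past the threshold. In Tbr1 or Lmx1a cells of that kind Zfhx3 was at 246 and 245 against 139.6 and 64.3 (log2 fold change -1.07 ± 0.36, edgeR adjusted p = 0.678), with only 8 UMIs in CKO 2.

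Within the Meis2 over Pax6 group the factors were found in partly different cells. Co-detection was counted in thinned cells, as the cells with UMIs of both genes over the number that the 2 shares give if independent, and only where at least 5 such cells were expected. Zfhx3 and Zfhx4 were found together 1.61, 1.82, 1.45 and 1.63 times as often in control 1, control 2, CKO 1 and CKO 2. Zfhx3 and Bnc2 were found together 1.87, 2.04 and 1.86 times as often in the 3 libraries that could be read. In control 1, 17.6% of the cells with Zfhx3 had Bnc2, against 1.42% of those without. Zfhx4 and Bnc2 were at 1.80 and 2.09 in the controls.

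Bcl11a and Bcl11b were at 1.40, 1.24, 1.35 and 1.34, and the 3 pairs of Ebf genes at 1.07 to 1.26 over the 4 libraries. Zfhx3, Zfhx4 and Bnc2 with Ebf2 or Ebf3 were below 1 in the controls and CKO 1. Zfhx3 with Ebf2 was at 0.70, 0.64 and 0.69 in the controls and CKO 1 but at 1.07 in CKO 2, and Zfhx3 with Ebf3 was at 0.73, 0.69, 0.88 and 1.02. Zfhx4 with Ebf2 was at 0.48, 0.52 and 0.67, and 0.99 in CKO 2, and Zfhx4 with Ebf3 at 0.85, 0.60 and 0.80, and 1.11 in CKO 2. Bnc2 with Ebf3 was at 0.42, 0.76 and 0.50. Bcl11a went with Ebf2 at 1.24, 1.16, 1.05 and 1.05 and with Ebf3 at 0.996 to 1.04. Some ratios rest on few cells with both genes: 3 for Bnc2 with Ebf2 and 7 for Zfhx4 with Ebf2 in control 1, and in CKO 2 10 for Zfhx4 with Ebf2, 15 for Zfhx3 with Ebf2, 21 for Zfhx4 with Ebf3 and 27 for Zfhx3 with Ebf3. These ratios share cells and depth and carry no test.

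**Figure D4:**
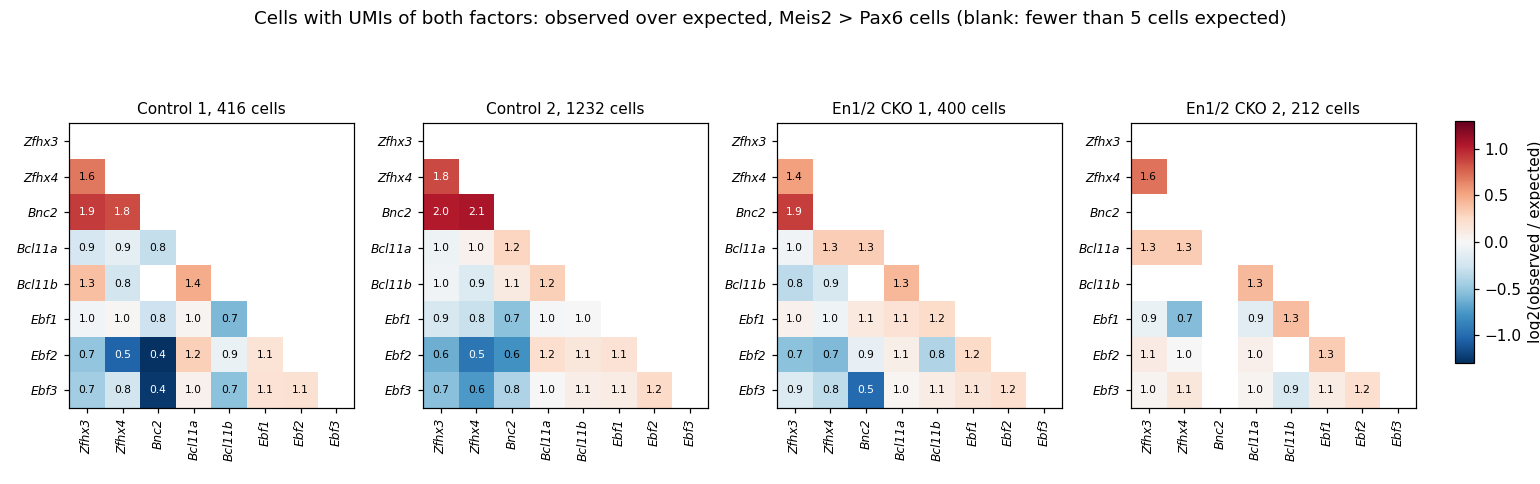
Observed over expected number of thinned Meis2 over Pax6 cells with UMIs of both factors (rows and columns), 1 panel per library, with colour on a log2 scale and blank where fewer than 5 cells were expected. The Zfhx3, Zfhx4 and Bnc2 corner was at 1.45 to 2.09 where readable, and their pairs with Ebf2 and Ebf3 were at 0.41 to 0.93 in the controls and CKO 1.

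Genes that mark subsets of these cells were shared as unevenly. Olig2, a factor known from the specification of oligodendrocytes and motor neurons, was found with Zfhx3 only 0.16, 0.34 and 0.19 times as often as independence gives in control 1, control 2 and CKO 1. In control 2 it was in 3.04% of the cells with Zfhx3 and 12.7% of those without. Lmx1a was at 0.56, 0.43 and 0.15 with Zfhx3, and Tbr1 at 0.31, 0.61 and 0.30. These rest on small numbers, such as 1 cell with both Olig2 and Zfhx3 against 6.41 expected in control 1. Ebf1 went with Olig2 and with Lmx1a more often than independence gives, at 1.18, 1.19 and 1.67 for Olig2 and 1.32, 1.14 and 1.23 for Lmx1a.

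Lhx9 and Lhx2, LIM homeodomain factors of excitatory cerebellar nuclei neurons, went with Zfhx3 in all 4 libraries. Lhx9 was found with it 1.38, 1.23, 1.26 and 1.66 times as often, and Lhx2 1.28, 1.18, 1.19 and 1.67 times. In CKO 2, 50.9% of the cells with Zfhx3 had Lhx9 and 23.2% of those without. The direction was the same in the control and CKO libraries for each of these pairs.

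Cells in division held less Zfhx3. In thinned Meis2 over Pax6 cells with at least 2 UMIs of the 6 dividing-cell genes, Zfhx3 was at 408, 331, 242 and 152 CPM in control 1, control 2, CKO 1 and CKO 2, and in the other cells at 669, 586, 398 and 349. The dividing cells gave 31, 45, 15 and 7 UMIs of it. In the other cells Zfhx3 of both CKO libraries lay below both controls. The part of dividing cells in the Zfhx3 difference was not tested. Ebf1 was likewise lower in dividing cells, at 645, 1662, 306 and 348 against 1124, 1953, 645 and 976. Bcl11a had no common direction, at 303, 250, 194 and 348 against 276, 289.5, 248 and 317. On the granule side, where more cells divide, Zfhx3 was alike in dividing and other cells, at 36.5 and 33.7 in control 1 and 18.1 and 16.6 in CKO 2.

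Most Meis2 over Pax6 cells had UMIs of at least 1 of the 8 factors. At 2000 UMIs per cell, 5.77% and 2.11% of control and 8.0% and 8.02% of CKO Meis2 over Pax6 cells had none of them. Cells with 2 or 3 of them made up 58.2% and 63.3% of control and 54.0% and 50% of CKO cells, and cells with 1 made up 18.03%, 13.6%, 19.5% and 26.9%. No cell had 7 or 8. In Pax6 over Meis2 cells 22.3% and 11.1% of control and 32.9% and 37.2% of CKO cells had none.

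The genes whose level most resembled each factor's over the 16 sums (4 cell groups in 4 libraries, log2 scale) were read as a description only. Those sums share libraries, depth and some cells. Zfhx3 was closest to Srrm3 (r = 0.99) and Glra2 (r = 0.98), Zfhx4 to Ppp1r9a and A230057D06Rik (r = 0.95 and 0.94), and Bnc2 to Usp9x and Ugcg (r = 0.96 and 0.95). Bcl11a was closest to Zcchc14 and Tnks2 (r = 0.95 and 0.94), and Bcl11b to Palmd and Gm42702 (r = 0.96 and 0.95). Ebf1 was closest to Gpc2 and Cemip2 (r = 0.98 for both), Ebf2 to Frmd4b and Sobp (r = 0.98 for both), and Ebf3 to Gsk3b and Midn (r = 0.97 for both).

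Relatives and partners of the factors were followed in the same fits. Of 13 relatives (other Zfhx, Ebf, Bnc, Zeb, Zhx, Tshz and Adnp genes) 10 were tested in Meis2 over Pax6 cells and none was called. At an unadjusted p under 0.05, 1 was higher (Zeb1) and 1 lower (Zhx3), and the median log2 fold change was 0.03 beside -0.01 for all genes. Of the 29 BAF subunits, the remodelling complex that Bcl11 proteins join, none was called and the median was -0.05. Of 15 NuRD subunits none was called and the median was 0.20. DESeq2 called 0 relatives, 0 BAF subunits and 1 NuRD subunit there, Cdk2ap1, which was higher. In Pax6 over Meis2 cells edgeR and DESeq2 called 0 genes of these 3 lists, with medians of 0.08, 0.01 and 0.29.

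Zfp423 and Zfp521, zinc finger proteins that bind EBF factors, were both somewhat lower in Meis2 over Pax6 cells. Zfp423 stood at 67.1 and 70.5 CPM against 48.4 and 46.6 (log2 fold change -0.50 ± 0.20, edgeR adjusted p = 0.294), and Zfp521 at 35.6 and 50.1 against 32.1 and 32.6 (-0.41 ± 0.25). Neither passed the threshold, and DESeq2 called 0 of the 2. In both, the CKO libraries lay below the controls, as for 24.6% of all genes.

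Among 35 other neuronal transcription factors 34 were tested and none was called on either side, with medians of 0.02 in Meis2 over Pax6 and -0.20 in Pax6 over Meis2 cells, and DESeq2 called 1 (Nhlh2, higher in CKO) and 0. Of 29 genes of maturing neurons 27 were tested in each, and edgeR called 1 in Meis2 over Pax6 and 0 in Pax6 over Meis2 cells. The first was Syt4, a synaptotagmin of secretory vesicles, at 433 and 323 CPM against 135 and 130.4 (log2 fold change -1.46 ± 0.22, edgeR adjusted p = 0.0368). The median of these genes was -0.50 beside -0.01 for all genes on the Meis2 side and -0.82 beside -0.01 on the granule side. At an unadjusted p under 0.05, 12 and 14 of the 27 were lower, beside 6.82% and 6.51% of all genes, and 0 were higher. This list was chosen with earlier results of these data known, so nothing is read from its counts and medians. DESeq2 called 2 (Syt4 and Scn2a) and 3 (Syt4, Grin2b and Nrxn3), each lower in CKO. The genes of dividing cells moved the other way in Meis2 over Pax6 cells, as given above, and their part in this was not tested.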

How the data were processed

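The deposited values are raw UMI counts per gene and cell barcode, made by the authors with Cell Ranger 5.0.0 on mm10, per the submitters' processing notes. The annotation release is not given in the sources used here, and 32235 of the 32285 gene IDs were found in GENCODE M21. The libraries held 14998150 to 33709450 UMIs.

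The 8 factors, the gene lists (relatives, EBF partners, BAF and NuRD subunits, neuronal transcription factors, maturing neuron genes, cell type markers) and the tests were chosen with earlier results of these data known. Named besides them are called list genes, list genes that were named after their values were seen, and the 2 genes closest to each factor.

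UMIs were summed per library and cell group and scaled to 1000000 (CPM). Each group was tested with edgeR 4.0.16 (TMM, filterByExpr, quasi-likelihood F test, two-sided, Benjamini-Hochberg over all genes tested, threshold 0.05), after the code was tested on simulated data with 200 changed genes. Fold changes use TMM factors, and levels do not. The median log2 fold change of all genes was -0.01 in Meis2 over Pax6 cells. DESeq2 1.42.0 was an alternative. Doublets were left in, and removing the 0.8% per 1000 cells with the highest simulated-doublet scores was an alternative. Shares used cells thinned once to 2000 UMIs, with two-sided exact permutation tests over libraries.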

Additional observations from a re-analysis of the deposited data

How the results depend on the processing

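The counts of called genes moved with most settings. They are given in the order Meis2 over Pax6 (25), Pax6 over Meis2 (8), Olig2 (2), Tbr1 or Lmx1a cells (1) and the interaction (15). Leaving out 1 library at a time gave 44 to 751, 2 to 123, 28 to 1308, 6 to 461 and 28 to 422. Without a low-count filter they were 559, 348, 0, 256 and 84. DESeq2's Wald test gave 186, 88, 19 and 15. A gate margin of 2 UMIs gave 72, 4, 0 and 19. Thinned cells gave 8, 5, 4, 4 and 28, intact cells 42, 1, 3, 2 and 70. Without doublets the first 2 were 10 and 4, DESeq2 size factors gave 4 in Pax6 over Meis2 cells, and leaving out cells with GABAergic UMIs gave 4 in Olig2 cells. Exclusive groups gave 0 in Meis2 over Pax6 cells and 26 for the interaction, and had too few Olig2, Tbr1 or Lmx1a cells to be run. Within Meis2 over Pax6 cells the Olig2 and Tbr1 or Lmx1a counts were 356 and 0. The replicate block, for libraries that share only a number, gave 58, 0, 0 and 0, and was not run for the interaction. The correlations of same-numbered libraries were -0.21, -0.16, -0.31 and -0.10, and the crossed replicate block, chosen after seeing the data, gave 763, 207, 449 and 58. The causes of these changes were not tested.

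Of 579 alternative fold changes of the factors, 504 kept their direction and side of the threshold, 40 kept the direction and passed it, and 35 changed sign. Zfhx3, Bnc2, Bcl11a, Bcl11b and Ebf1 kept their direction in Meis2 over Pax6 cells under all 15 alternatives, with Zfhx3 between -1.22 and -0.78 (adjusted p 0.00187 to 0.485), Bnc2 between -1.44 and -0.81 (0.000862 to 0.809) and Ebf1 between -1.73 and -0.72 (8.33e-05 to 0.676). The factors were chosen with this contrast known and every alternative reuses these libraries, so nothing is read from a kept direction. Leaving out 1 library at a time gave both signs, from lowest to highest, for Zfhx4 (-0.23 to 0.060), Ebf2 (-0.27 to 0.56) and Ebf3 (-0.20 to 0.44) in Meis2 over Pax6 cells and for Bcl11b (-0.15 to 0.47) in Pax6 over Meis2 cells. It did so in Olig2 cells for Zfhx4 (-0.36 to 0.12), Bcl11a (-0.25 to 0.042), Ebf2 (-1.26 to 0.35) and Ebf3 (-0.93 to 0.13), and in Tbr1 or Lmx1a cells for Zfhx4 (-0.28 to 0.033), Bcl11a (-0.46 to 0.25), Bcl11b (-0.58 to 0.33) and Ebf3 (-0.74 to 0.31). In the interaction it did so for Zfhx4 (-0.049 to 0.56). Other changed signs in Meis2 over Pax6 cells were Zfhx4 at 0.23 thinned and Ebf2 at -0.17 in intact cells. In Olig2 cells Zfhx3 was at 0.36 with the margin of 2, and Zfhx4 at 0.14 with that margin, 0.24 without doublets, 0.22 in intact cells and 0.40 within Meis2 over Pax6 cells. In Tbr1 or Lmx1a cells Zfhx4 was at 1.54 with the margin and 0.0074 within Meis2 over Pax6 cells, Bcl11a at 0.078 and 0.24 under the same, and Bcl11b at 0.038 without the filter, 0.087 without doublets and 0.28 within Meis2 over Pax6 cells. In the interaction intact cells gave -0.32 for Zfhx4, -0.34 for Bcl11a and -0.17 for Ebf1, and no filter gave -0.018 for Bcl11a. Ebf2 passed the threshold there in 4 of 14 alternatives. The 18 of 32 combinations with lower shares became 9 when thinned to 1000 UMIs and 3 without thinning, when CKO cells were deeper, and 13 to 19 under the others. No share of all genes was taken for these alternatives, so nothing is read from them.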
